A study of Mus musculus with 14 samples.

Results

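The sterol and fatty acid synthesis genes are 34 genes named as a list: the sensors that set sterol supply, the enzymes that build cholesterol, the proteins that move sterols, and the enzymes that build and desaturate fatty acids. All 34 were found by symbol among the 25124 genes of the deposited count table, and all 34 were among the 13434 genes with enough counts to test. They fall by role into 5 sterol sensing genes, 7 genes of the mevalonate steps, 10 genes from squalene to cholesterol, 4 genes of sterol movement and efflux and 8 genes of fatty acid synthesis. RNA was measured in 14 libraries of T cells sorted from subcutaneous tumours of AE17-OVA, a mouse mesothelioma line that carries the model antigen ovalbumin. All mice were labelled female C57BL/6 of 8 to 12 weeks and carried the genotype GATIR Foxp3Cre-rfp Gata3Cre-yfp, in which the red reporter is driven from Foxp3, the gene that defines regulatory T cells (Tregs). Mice received 200 µg of anti-PD-L1 (clone MIH5), which blocks a ligand that restrains T cells through PD-1, or an isotype antibody (clone 2A3) into the peritoneum on day 10, with tumour harvest on day 13. The groups were anti-PD-L1 PD-1+ Tregs (n = 3), isotype PD-1+ Tregs (n = 2), anti-PD-L1 PD-1- Tregs (n = 2), isotype PD-1- Tregs (n = 2), anti-PD-L1 CD4 T cells (n = 3) and isotype CD4 T cells (n = 2). The series text calls the replicates biological and does not name the animals or pools behind them, so p-values measure only the spread between these libraries.

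Cells hold their sterol content steady through a feedback loop. When membranes are short of sterol, SCAP carries the precursors of the transcription factors SREBP1 and SREBP2 out of the endoplasmic reticulum to be cleaved, and the freed factors switch on the genes of sterol and fatty acid synthesis. When sterol is plentiful, INSIG proteins hold SCAP back, and oxysterols activate LXR, which switches on the efflux transporters ABCA1 and ABCG1. Dividing T cells draw on this pathway for membranes, and in Tregs the mevalonate branch is known to be needed for suppressive function.

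Some facts about the libraries touch these genes. Total counts ran from 10638848 to 15030804 per library, but the number of genes with at least 1 count was 9662 to 11312 for PD-1+ Tregs, 8027 to 8801 for PD-1- Tregs and 12119 to 14535 for CD4 T cells. Summed levels of 13 macrophage and monocyte markers were 3314 to 6055 CPM (counts scaled to a library of 1000000) in PD-1+ Tregs, 374 to 816 CPM in PD-1- Tregs and 1960 to 5258 CPM in CD4 T cells; of these, C1qa and Fcgr1 were at 0 in all 4 PD-1- Treg libraries, 7 more were at 0 in some of them, and none of the 13 was at 0 in a library of the other populations. Y-linked genes summed to 208 to 285 CPM in 3 libraries, anti-PD-L1 PD-1+ Tregs replicate 3, anti-PD-L1 PD-1- Tregs replicate 2 and anti-PD-L1 CD4 T cells replicate 3, and to at most 0.0849 CPM in the other 11, although all mice were labelled female. Those 3 libraries are also the ones that carry the number 3 in the brackets of their titles, a number shared across the populations. All 7 T cell markers, such as Cd3d and Lck, were detected in every library. Foxp3 did not separate the labelled types fully. Its level was 15.9 to 156 CPM in PD-1+ Tregs and 114 to 198 CPM in PD-1- Tregs. The range of Foxp3 among CD4 T cells was 16.3 to 55.0 CPM. Il2ra, a marker listed with Foxp3, did separate both Treg types from CD4 T cells. It ranged from 192 to 391 CPM for PD-1+ Tregs and from 247 to 662 CPM for PD-1- Tregs. For CD4 T cells, Il2ra ranged from 13.4 to 79.5 CPM. Pdcd1, which encodes PD-1, was at 85.6 to 246 CPM in PD-1+ Tregs and 21.7 to 46.5 CPM in PD-1- Tregs. Among CD4 T cells Pdcd1 ran from 45.4 to 275 CPM, overlapping both Treg types.

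Anti-PD-L1 lowered 2 of the 34 genes in PD-1- Tregs, Insig1, which encodes a brake on SREBP processing, and Abcg1, a sterol efflux transporter of the LXR programme. Rise and fall are used here of genes for which edgeR's quasi-likelihood test gave an adjusted p under 0.05 over all 13434 genes. These 2 calls stood beside 2.66% of all tested genes. In PD-1- Tregs 10 of the 34 had an unadjusted p under 0.05, beside 20.1% of all tested genes. No member was called under treatment in PD-1+ Tregs, where 0.0149% of tested genes were, or in CD4 T cells, where 0.00744% were, or in the mean effect over the 3 populations, where 1.23% were. At an unadjusted p under 0.05 the members numbered 2 for PD-1+ Tregs, 0 for CD4 T cells and 5 for the mean effect, beside 8.06%, 1.15% and 14.8% of all tested genes. DESeq2 called 1, 0 and 5 of the members in that order, beside 618, 54 and 1898 of the 12708 genes it tested, and limma-voom called 0 each time. The treatment effect in PD-1- Tregs differed from that in PD-1+ Tregs for 2 members, Insig1 and Abcg1 (1.46% of tested genes), and from that in CD4 T cells for 1 member, Insig1 (0.975% of tested genes). Between PD-1+ Tregs and CD4 T cells the treatment effect differed for no member and for 0% of tested genes; 0 members had an unadjusted p under 0.05 there, and DESeq2 and limma-voom called 0. Among the populations, 1 member, Srebf2, was lower in PD-1+ Tregs than in PD-1- Tregs (4.28% of tested genes called).

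**Figure D1:**
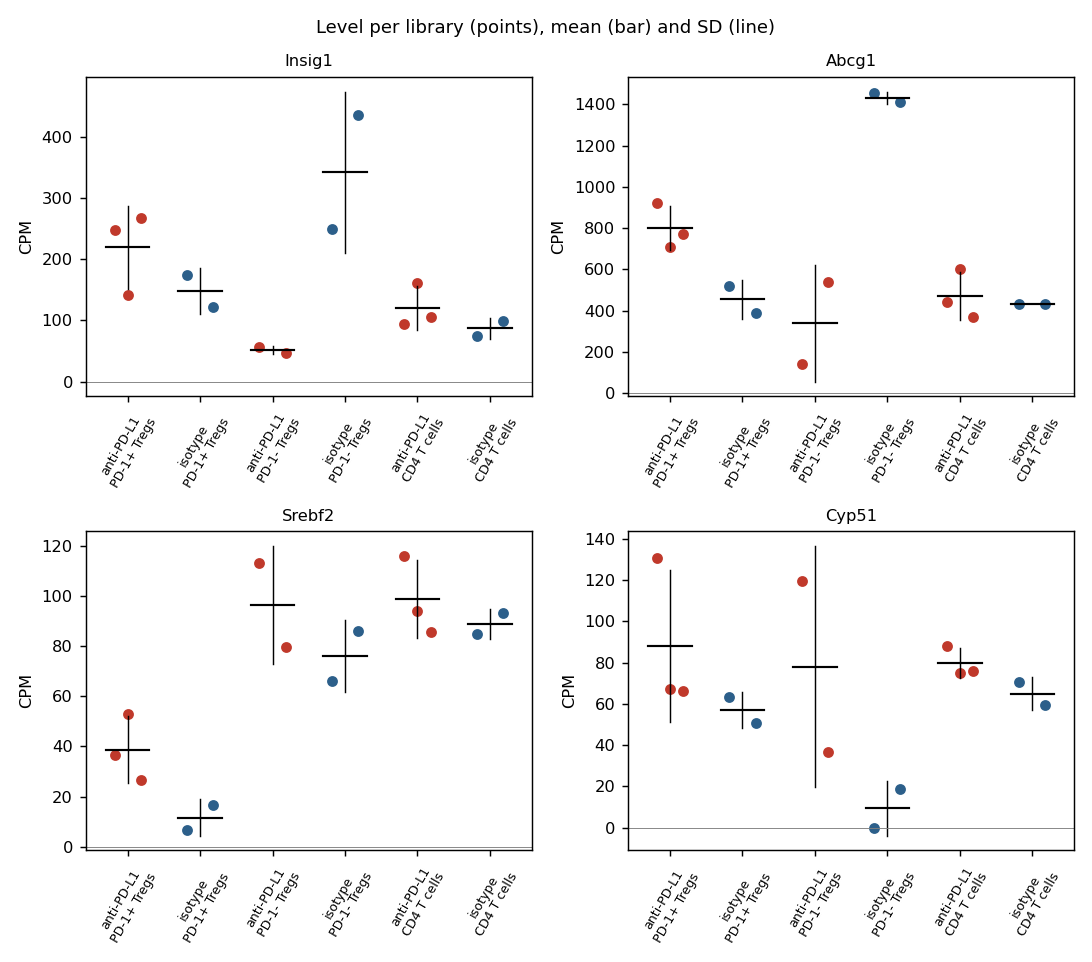
Level in CPM of Insig1, Abcg1, Srebf2 and Cyp51 in each library (points), with the mean (bar) and SD (line) of each of the 6 groups; red is anti-PD-L1 and blue is isotype. Both anti-PD-L1 PD-1- Treg libraries of Insig1 sit at 56.4 and 46.9 CPM, under all other libraries, and Srebf2 sits between 6.45 and 52.9 CPM in PD-1+ Tregs, under the libraries of the other populations.

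Insig1 encodes the membrane protein that retains SCAP, and its own transcription is raised by SREBP. Insig1 was at 56.4 and 46.9 CPM in anti-PD-L1 PD-1- Tregs, against 249 and 435 CPM in isotype PD-1- Tregs. The treated libraries lay below both isotype libraries and were the lowest of all 14. On the log2 scale Insig1 fell by 2.73 ± 0.46 (SE; adjusted p = 0.00937). In PD-1+ Tregs it was at 248, 142 and 268 CPM under anti-PD-L1 and 174 and 122 CPM under isotype, and the arms overlapped (log2 difference 0.57 ± 0.40, adjusted p = 0.834). Its levels in CD4 T cells were 94.0, 161 and 105 CPM under anti-PD-L1 and 75.0 and 98.9 CPM under isotype, again with overlap (log2 difference 0.47 ± 0.40). The effect in PD-1- Tregs minus that in PD-1+ Tregs was -3.30 ± 0.61 on the log2 scale (adjusted p = 0.0207), and minus that in CD4 T cells -3.20 ± 0.61 (adjusted p = 0.0293); both differences share the PD-1- Treg libraries. The first held in 12 of the 14 fits that left out 1 library and in 5 of 12 other alternatives, and was lost without either isotype PD-1+ Treg library (adjusted p 0.0646 and 0.112). The second held in 9 of 14 and in 4 of 12, and was lost without any 1 of the 5 CD4 T cell libraries (0.0524 to 0.223).

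The fall of Insig1 in PD-1- Tregs passed the threshold in all 14 fits that left out 1 library, with log2 differences of -3.09 to -2.27. Only fits without 1 of the 4 PD-1- Treg libraries drop a library of this comparison, and each leaves 1 library in an arm. The rest change it only through scaling and the shared spread, so the 14 fits are a weak check. The fall passed in 8 of 12 other alternatives, over which the adjusted p ran from 8.90e-08 to 0.508. It missed the threshold with limma-voom (0.0634, and 0.508 with library quality weights) and with only the 4 PD-1- Treg libraries in the fit (0.223), and without the 3 libraries that hold Y-linked counts it was -2.63 ± 0.62 (0.0507). The 4 libraries of this comparison also differed elsewhere. Actb, the cytoskeletal actin gene, took 3.16% and 2.74% of counts in anti-PD-L1 PD-1- Tregs and 6.53% and 8.71% in isotype PD-1- Tregs. The 10 markers of dendritic cells and MHC class II summed to 10312 and 8516 CPM in the treated and 13462 and 14668 CPM in the isotype libraries; Xcr1 and Zbtb46 were at 0 in all 4. The 7 neutrophil and mast cell markers summed to 56.9 and 17.5 CPM in the treated libraries and to 0 in both isotype libraries; Cpa3, Mcpt4, Mpo and S100a8 were at 0 in all 4. The part of these in the fall of Insig1 and Abcg1 was not tested. Macrophage marker sums overlapped between the arms, at 374 and 745 CPM in the treated and 816 and 385 CPM in the isotype libraries, as did those of T cell markers, at 5878 and 7749 CPM against 7419 and 5991 CPM.

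Srebf2 encodes SREBP2, the factor that drives sterol synthesis genes. It was at 6.45, 26.6 and 52.9 CPM (lowest, median and highest of 5) in PD-1+ Tregs, at 66.1 to 113 CPM in the 4 PD-1- Treg libraries, and at 84.7 to 116 CPM in the 5 CD4 T cell libraries. Every PD-1+ Treg library lay below every library of both other populations. Srebf2 was lower in PD-1+ than in PD-1- Tregs by a log2 difference of -2.01 ± 0.46 (adjusted p = 0.0301), where means of the treatment groups were averaged with equal weight. The difference from CD4 T cells was of like size, -2.14 ± 0.45, but missed the threshold (adjusted p = 0.0734), and PD-1- Tregs and CD4 T cells differed by -0.13 ± 0.45. Within PD-1+ Tregs, Srebf2 was at 36.6, 52.9 and 26.6 CPM under anti-PD-L1 and 6.45 and 16.8 CPM under isotype, without overlap (1.73 ± 0.65, unadjusted p = 0.0192, adjusted p = 0.596). The difference between Treg types was called in 8 of 14 fits that left out 1 library and in 8 of 12 other alternatives, with an adjusted p over all 26 from 1.32e-07 to 0.395. It missed the threshold without any 1 of the 5 CD4 T cell libraries (0.0639 to 0.0753), which only lend their spread to this fit, and without isotype PD-1+ Tregs replicate 1 (0.0839). It also missed it with the replicate number (0.171) or the bracketed number (0.131) as a block. Macrophage marker sums and the number of genes detected were higher in PD-1+ than in PD-1- Tregs, as given above. Their part in the Srebf2 difference was not tested.

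Srebf1, Scap and Insig2, the other sterol sensing genes, were not called by edgeR in any comparison. Of all 5 sensing genes, 1 had an unadjusted p under 0.05 for treatment among PD-1+ Tregs (Srebf2), beside 8.06% of all tested genes. Among PD-1- Tregs 2 had (Insig1 and Insig2), beside 20.1% of all tested genes, and among CD4 T cells 0, beside 1.15%. Srebf1, which encodes SREBP1, was at 25.7 to 51.7 CPM in PD-1+ Tregs and 39.6 to 52.1 CPM in CD4 T cells. Its PD-1- Treg libraries were at 47.5 and 0 CPM under anti-PD-L1 and 43.0 and 45.8 CPM under isotype. Its treated libraries lay below the isotype ones in CD4 T cells, at 47.8, 39.6 and 49.05 CPM against 49.14 and 52.1 CPM, by a margin under 1 CPM at the closest pair. Scap, the SREBP escort, was at 12.2, 54.2 and 0.195 CPM in anti-PD-L1 PD-1+ Tregs and 0.0849 and 4.81 CPM in isotype PD-1+ Tregs. In PD-1- Tregs Scap was at 0 and 92.0 CPM under anti-PD-L1 and 19.9 and 0 CPM under isotype, while in CD4 T cells it stayed within 24.7 to 32.1 CPM. Insig2, the second INSIG gene, was at 1.92 and 0 CPM in anti-PD-L1 PD-1- Tregs, against 36.8 and 23.4 CPM in isotype PD-1- Tregs. The arms did not overlap, as for Insig1, but the difference missed the threshold (-4.95 ± 1.63, adjusted p = 0.126). For Insig2 in CD4 T cells the treated libraries were the higher ones, at 72.9, 63.7 and 75.8 CPM under anti-PD-L1 against 61.2 and 52.0 CPM under isotype, also without overlap (0.32 ± 1.26). In PD-1+ Tregs its arms overlapped, at 19.3, 71.7 and 44.1 CPM under anti-PD-L1 and 76.3 and 25.9 CPM under isotype.

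The windows upstream of the start sites of Insig1 and Srebf2, the called sensing genes, are shown because sterol control is known to act through promoters. RefSeq's promoter table of GRCm38.p6, the same build as mm10, held 26 of the 34 genes; those not matched were Abcg1, Scd2, Sqle, Fdft1, Stard4, Fdps, Scd1 and Fads1. Capitals mark CCAAT (the letters of the NF-Y box, ATTGG on the other strand), CACGTG (an E-box) and ATCACNCCA (the start of the classical sterol regulatory element), letters that were chosen after the windows were seen. Each was searched on both strands over the 250 bases before the start, and the matches shown do not overlap one another. The Insig1 window is chr5:28071162-28071411 and that of Srebf2 chr15:82147019-82147268, both on the plus strand.
Insig1: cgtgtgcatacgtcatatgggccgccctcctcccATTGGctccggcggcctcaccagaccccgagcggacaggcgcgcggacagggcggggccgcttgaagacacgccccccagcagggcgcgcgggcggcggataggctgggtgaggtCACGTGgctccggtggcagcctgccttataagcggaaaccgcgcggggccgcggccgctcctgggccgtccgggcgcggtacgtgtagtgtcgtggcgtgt
Srebf2: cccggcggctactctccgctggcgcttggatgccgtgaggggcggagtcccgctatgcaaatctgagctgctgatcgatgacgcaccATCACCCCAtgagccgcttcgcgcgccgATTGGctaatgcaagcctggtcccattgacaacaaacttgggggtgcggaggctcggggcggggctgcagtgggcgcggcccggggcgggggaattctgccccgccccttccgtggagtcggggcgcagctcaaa
In the Insig1 window ATTGG lay 216 to 212 bases before the start and CACGTG 101 to 96 bases before it. In the Srebf2 window the ATCACNCCA match lay 163 to 155 bases and ATTGG 135 to 131 bases before the start. ATCACNCCA was held by 0.712% of all 32851 promoters in the table and by 1 of the 34 promoters of member genes, that of Srebf2. CCAAT was held by 33.8% of all promoters and by 20 of the 34 member promoters (58.8%), which belong to 19 of the 26 genes. CACGTG was held by 6.02% of all promoters and by 6 member promoters, those of Abca1, Dhcr7, Hsd17b7, Insig1, Sc5d and Scap. A match is a run of letters and was not tested as a site.

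Abcg1 (chr17:31057694-31117984, mm10), which moves cholesterol out of the cell, had the highest median level per length of the 34 in both Treg types. Its median was 101 RPKM (reads scaled by transcript length and library depth) in PD-1+ Tregs, with a range of 58.8 to 126. It was 139 RPKM in PD-1- Tregs, with a range of 22.6 to 201, and 66.5 RPKM in CD4 T cells, with a range of 56.3 to 89.5. There Ebp, at a median of 72.1 RPKM, came before it, with overlapping ranges. Abcg1 was at 139 and 539 CPM in anti-PD-L1 PD-1- Tregs, against 1453 and 1409 CPM in isotype PD-1- Tregs, the highest values of any member in any library. The arms did not overlap, and Abcg1 fell by 2.08 ± 0.47 on the log2 scale (adjusted p = 0.0364). In PD-1+ Tregs the treated libraries were the higher ones, at 919.9, 710.2 and 769 CPM under anti-PD-L1 and 521 and 386 CPM under isotype, without overlap, but the difference missed the threshold (0.82 ± 0.42, adjusted p = 0.636). CD4 T cells held Abcg1 at 439.9, 600.4 and 371 CPM under anti-PD-L1 and 432 and 432 CPM under isotype. The effect in PD-1- Tregs minus that in PD-1+ Tregs was -2.90 ± 0.63 (adjusted p = 0.0455), while the difference from the effect in CD4 T cells missed the threshold (-2.20 ± 0.63, adjusted p = 0.149).

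The fall of Abcg1 was close to the threshold. It was called in 3 of the 14 fits that left out 1 library and in 8 of 12 other alternatives, with an adjusted p over all 26 from 0.000395 to 0.793. Its size rested on which treated PD-1- Treg library was kept: -1.41 ± 0.33 without replicate 1 and -3.39 ± 0.37 without replicate 2, both called (adjusted p 0.0228 and 0.000881). With the replicate number or the bracketed number as a block the call was lost (0.0744 and 0.0925). Left out in turn, each CD4 T cell library, each isotype Treg library and replicates 1 and 2 of anti-PD-L1 PD-1+ Tregs ended the call, with adjusted p from 0.0511 to 0.0733. The difference between the Treg types held in 3 of 14 and in 6 of 12, and ran from -2.20 ± 0.40 without treated PD-1- Treg replicate 1 to -4.18 ± 0.43 without replicate 2. Without the 3 libraries with Y-linked counts, Abcg1 fell by 3.39 ± 0.35 in PD-1- Tregs (adjusted p = 0.00367).

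The 3 other genes of sterol movement were not called by edgeR in any comparison. For treatment, an unadjusted p under 0.05 was reached by 1 of the 4, Abca1, among PD-1+ Tregs, beside 8.06% of all tested genes. It was reached by 3, Abcg1, Abca1 and Tmem97, among PD-1- Tregs, beside 20.1%, and by 0 among CD4 T cells, beside 1.15%. Abca1, the second efflux transporter of the LXR programme, was low: 0.858, 0 and 0 CPM in anti-PD-L1 PD-1+ Tregs, against 16.9 and 37.1 CPM in isotype PD-1+ Tregs, with no overlap and the opposite order to Abcg1 (adjusted p = 0.596). In PD-1- Tregs Abca1 was at 0 and 14.2 CPM under anti-PD-L1 and 0 in both isotype libraries, and in CD4 T cells at 7.24 to 18.0 CPM in all 5 libraries. Stard4, which carries cholesterol between membranes inside the cell, was at 60.8, 67.4 and 53.6 CPM in anti-PD-L1 CD4 T cells, against 34.4 and 24.6 CPM in isotype CD4 T cells. These arms did not overlap (1.04 ± 0.95, not called). In PD-1+ Tregs Stard4 was at 105, 69.9 and 50.8 CPM under anti-PD-L1 and 65.0 and 29.4 CPM under isotype, and in PD-1- Tregs at 19.4 and 56.3 CPM against 99.5 and 11.4 CPM, with overlap in both. Tmem97, a sterol-regulated membrane protein known as the sigma-2 receptor, was detected in all 5 PD-1+ Treg libraries at 19.0 to 38.3 CPM and in 1 of 4 PD-1- Treg libraries, at 14.0 CPM. Its range in CD4 T cells was 11.9 to 18.6 CPM. PD-1+ Treg libraries of Tmem97 lay above those of both other populations, with adjusted p = 0.0665 against PD-1- Tregs.

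**Figure D2:**
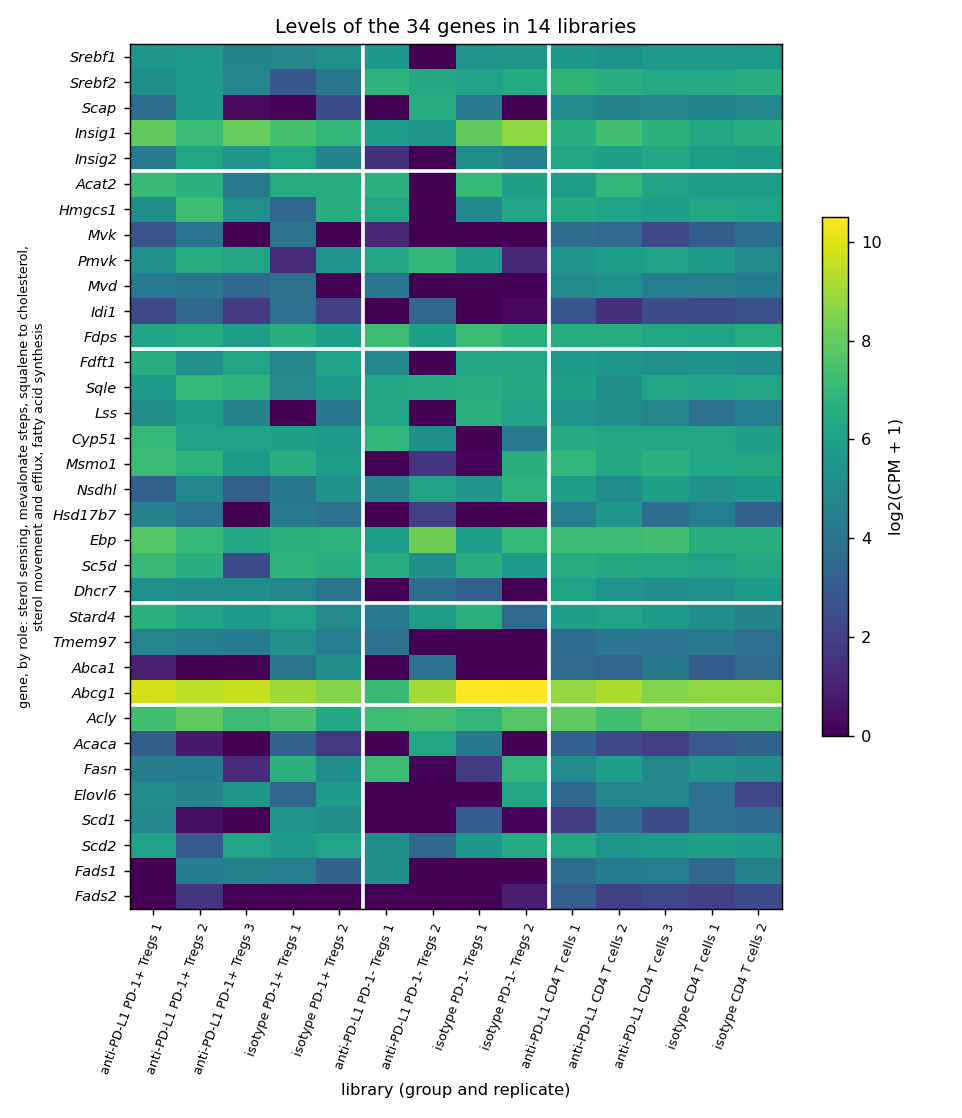
Level of the 34 genes, as log2(CPM + 1), in the 14 libraries; rows follow the 5 roles and columns the 6 groups, with white lines between roles and between populations. The darkest cells are genes at 0 counts, which are frequent in PD-1- Tregs and absent from CD4 T cells, though some genes are low there too. Abcg1 is brightest in the isotype PD-1- Treg libraries, at 1453 and 1409 CPM.

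The mevalonate steps turn acetyl-CoA into farnesyl diphosphate, the branch point to sterols and to protein prenylation. None of the 7 genes was called by edgeR in any comparison; for treatment, an unadjusted p under 0.05 was reached by 0 of them among PD-1+ Tregs, 1 among PD-1- Tregs (20.1% of all tested genes) and 0 among CD4 T cells. Fdps, which makes farnesyl diphosphate, was the most abundant of them per length. It was at 68.3, 87.3 and 58.2 CPM in anti-PD-L1 PD-1+ Tregs and 99.3 and 60.1 CPM in isotype PD-1+ Tregs. In PD-1- Tregs Fdps was at 149 and 61.7 CPM under anti-PD-L1 and 143 and 105 CPM under isotype, and in CD4 T cells at 96.1, 92.8 and 73.3 CPM against 68.3 and 89.3 CPM. The arms overlapped in each population. Fdps had the smallest coefficient of variation of the 34 over PD-1+ Treg libraries, 24.1%.

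Pmvk and Mvd, kinase and decarboxylase of the mid-pathway, showed separated arms in 1 population each. Pmvk was at 70.5 and 123 CPM in anti-PD-L1 PD-1- Tregs, against 58.7 and 1.27 CPM in isotype PD-1- Tregs, without overlap (1.69 ± 1.49, adjusted p = 0.649). In PD-1+ Tregs Pmvk was at 37.5, 89.4 and 71.8 CPM under anti-PD-L1 and 1.53 and 42.7 CPM under isotype. CD4 T cells held Pmvk at 43.0, 56.1 and 64.9 CPM under anti-PD-L1 and 53.1 and 31.7 CPM under isotype, and the arms overlapped there, while in PD-1+ Tregs 1 treated library lay below an isotype one. Mvd was at 31.4, 39.8 and 22.2 CPM in anti-PD-L1 CD4 T cells and 21.4 and 20.4 CPM in isotype CD4 T cells, a gap of less than 1 CPM at the closest pair. In PD-1+ Tregs Mvd was at 18.7, 16.2 and 10.3 CPM under anti-PD-L1 and 14.5 and 0 CPM under isotype. Of the PD-1- Treg libraries it had counts in 1, a treated one at 16.3 CPM. The other 4 genes of this branch were Acat2 and Hmgcs1, which build the first intermediates, Mvk and Idi1. Acat2 and Hmgcs1 ranged from 0 to 133 and from 0 to 149.8 CPM over the libraries, both at 0 in anti-PD-L1 PD-1- Tregs replicate 2, while Mvk and Idi1 stayed under 17 CPM everywhere.

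From squalene to cholesterol, 10 genes were measured and none was called by edgeR in any comparison, with 0, 1 and 0 at an unadjusted p under 0.05 for treatment in the same populations. Cyp51, the demethylase of lanosterol, was the one member whose treated libraries lay above all isotype libraries in each of the 3 populations, a pattern noticed after the values were seen. Cyp51 was at 131, 67.0 and 66.4 CPM in anti-PD-L1 PD-1+ Tregs, against 63.3 and 50.8 CPM in isotype PD-1+ Tregs. In PD-1- Tregs it was at 119 and 36.8 CPM under anti-PD-L1 and 0 and 18.9 CPM under isotype. Its CD4 T cell libraries were at 88.2, 75.0 and 75.9 CPM under anti-PD-L1 and 70.6 and 59.3 CPM under isotype. No single effect passed the threshold, and the mean effect over the 3 populations was 1.32 ± 0.81 on the log2 scale (adjusted p = 0.530).

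Lss, which closes the sterol rings to lanosterol, was at 35.9, 60.8 and 25.3 CPM in anti-PD-L1 PD-1+ Tregs, against 0 and 17.4 CPM in isotype PD-1+ Tregs. Among CD4 T cells Lss was at 44.1, 36.7 and 28.0 CPM under anti-PD-L1 and 13.4 and 22.2 CPM under isotype. Both pairs of arms were separate with treated libraries higher, while in PD-1- Tregs Lss was at 73.6 and 0 CPM under anti-PD-L1 and 105 and 69.1 CPM under isotype. Ebp, the sterol isomerase and the most abundant gene of this branch per length, was at 141, 145 and 157 CPM in anti-PD-L1 CD4 T cells, against 98.7 and 94.4 CPM in isotype CD4 T cells. The treated CD4 libraries lay well above the isotype ones, yet the difference, 0.61 ± 0.61, was not called. In PD-1+ Tregs Ebp was at 215, 132 and 79.2 CPM under anti-PD-L1 and 103 and 110 CPM under isotype, and in PD-1- Tregs at 58.3 and 296 CPM against 57.9 and 126 CPM, with overlap in both. Msmo1, which removes methyl groups from the sterol ring, was at 122, 83.5 and 104 CPM in anti-PD-L1 CD4 T cells and 75.2 and 83.5 CPM in isotype CD4 T cells, arms that met at their edges. In PD-1+ Tregs Msmo1 was at 141, 108 and 51.7 CPM under anti-PD-L1 and 95.1 and 58.4 CPM under isotype, and in PD-1- Tregs 1 library, an isotype one, held 96.4 CPM and the other 3 at most 2.10 CPM.

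Dhcr7, the last reductase before cholesterol, was at 37.2, 32.9 and 35.6 CPM in anti-PD-L1 PD-1+ Tregs, against 27.0 and 15.9 CPM in isotype PD-1+ Tregs, without overlap (0.72 ± 1.98, not called). It was at 0 and 13.0 CPM in anti-PD-L1 PD-1- Tregs and 8.38 and 0 CPM in isotype PD-1- Tregs. Among CD4 T cells Dhcr7 was at 67.6, 42.0 and 36.0 CPM under anti-PD-L1 and 38.5 and 52.9 CPM under isotype. Fdft1, squalene synthase, was at 29.2 and 0 CPM in anti-PD-L1 PD-1- Tregs, against 75.5 and 75.6 CPM in isotype PD-1- Tregs, again apart and not called (-2.37 ± 1.68, adjusted p = 0.501). Fdft1 overlapped in PD-1+ Tregs, at 89.4, 39.0 and 74.4 CPM against 26.5 and 66.8 CPM under isotype, and in CD4 T cells, at 54.1, 45.7 and 37.1 CPM against 40.9 and 33.2 CPM. The other 4 genes were Sqle, Nsdhl, Hsd17b7 and Sc5d. Sqle, the epoxidase that acts on squalene, was the steadiest member over PD-1- Treg libraries, at 77.5 to 93.0 CPM with a coefficient of variation of 7.81%, and the one member whose PD-1- Treg libraries all lay above the CD4 T cell libraries, at 37.1 to 74.5 CPM (not called). Hsd17b7 was at 8.33 to 43.7 CPM in CD4 T cells and had counts in 1 of 4 PD-1- Treg libraries, at 3.03 CPM.

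Fatty acid synthesis showed no member called by edgeR, with 0 of 8 at an unadjusted p under 0.05 for treatment among PD-1+ Tregs, 3 among PD-1- Tregs (against the same 20.1%) and 0 among CD4 T cells. Acly, which makes cytosolic acetyl-CoA from citrate, was the most abundant of the 8 per length. It was at 160.4, 244 and 143 CPM in anti-PD-L1 PD-1+ Tregs and 176 and 78.4 CPM in isotype PD-1+ Tregs, at 151 and 167 CPM against 119 and 207 CPM in PD-1- Tregs, and at 242, 159.7 and 224 CPM against 195 and 194 CPM in CD4 T cells. The arms overlapped in all 3, and the log2 differences were 0.52 ± 0.41, -0.04 ± 0.44 and 0.10 ± 0.40. Fasn, the fatty acid synthase, was at 20.0, 19.8 and 1.36 CPM in anti-PD-L1 PD-1+ Tregs, against 106 and 35.0 CPM in isotype PD-1+ Tregs, without overlap (-2.36 ± 1.85, adjusted p = 0.913). In PD-1- Tregs Fasn was at 144 and 0.0841 CPM under anti-PD-L1 and 2.42 and 121 CPM under isotype, and in CD4 T cells at 33.0, 58.7 and 27.2 CPM against 45.7 and 35.7 CPM.

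Scd1 and Scd2 are stearoyl-CoA desaturases that lie in the same region of chromosome 19 and share sequence, so counts may have been split between them. No source used here says how the authors' counting treated shared reads. Scd1 was at 28.6, 0.314 and 0 CPM in anti-PD-L1 PD-1+ Tregs, against 42.5 and 35.8 CPM in isotype PD-1+ Tregs, without overlap (-2.02 ± 2.33, not called). In PD-1- Tregs it was at 0 in both treated libraries and 7.36 and 0.0905 CPM under isotype, and in CD4 T cells at 2.77, 11.9 and 4.65 CPM against 14.0 and 11.8 CPM. Scd2 was at 35.2 and 10.3 CPM in anti-PD-L1 PD-1- Tregs, against 47.1 and 86.6 CPM in isotype PD-1- Tregs, without overlap (-1.56 ± 1.08, adjusted p = 0.488). In PD-1+ Tregs Scd2 was at 64.6, 6.82 and 73.3 CPM under anti-PD-L1 and 49.3 and 74.1 CPM under isotype, and in CD4 T cells at 78.8, 43.1 and 50.5 CPM against 61.3 and 48.4 CPM. The other 4 genes, Acaca, Elovl6, Fads1 and Fads2, ranged from 2.93 to 29.2 CPM over CD4 T cell libraries. Among Tregs, Acaca ran from 0 to 77.6 CPM and Fads1 from 0 to 36.1 CPM, each highest in an anti-PD-L1 PD-1- Treg library, and Fads2 was at 0 in 7 of 9 libraries. The range of Elovl6 in PD-1+ Tregs was 10.2 to 53.1 CPM. Elovl6 was at 0 in both anti-PD-L1 PD-1- Treg libraries, and at 0 and 73.9 CPM in isotype PD-1- Tregs, so its fitted difference there rests on 1 library.

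**Figure D3:**
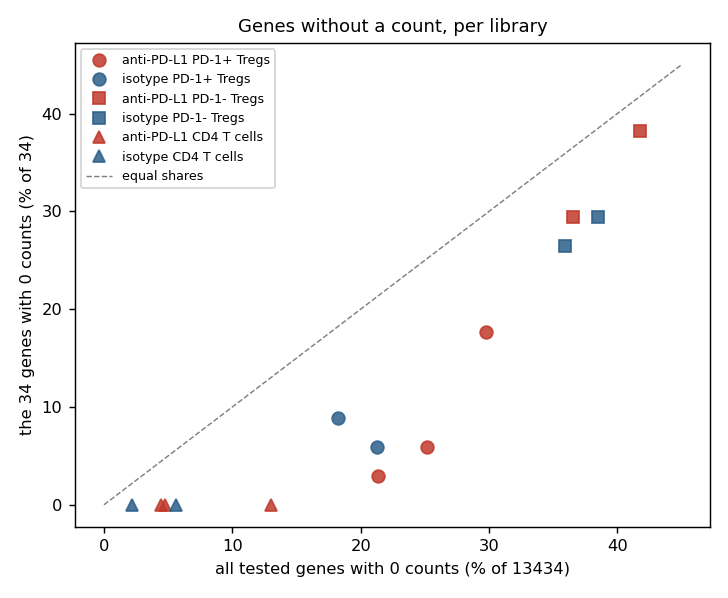
Share of the 34 genes with 0 counts in a library (vertical, % of 34) against the share of all 13434 tested genes with 0 counts (horizontal, %), 1 point per library. PD-1- Treg libraries lie at 26.5% to 38.2% of the 34 genes, PD-1+ Treg libraries at 2.94% to 17.6% and CD4 T cell libraries at 0%; every library lies below the line of equal shares.

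How often the genes went undetected differed by population. A member had 0 counts in at least 1 library for 9 of 34 in PD-1+ Tregs, 21 of 34 in PD-1- Tregs and 0 of 34 in CD4 T cells, against 43.9%, 60.8% and 16.9% of all tested genes. The median coefficient of variation over the members was 55.9%, 104% and 25.4% in the same order, against 75.8%, 106% and 33.7% over all tested genes. In single libraries 9 to 13 members were at 0 in PD-1- Tregs and 1 to 6 in PD-1+ Tregs. In anti-PD-L1 PD-1- Tregs 3 members were at 0 in both libraries and in isotype PD-1- Tregs 6 were. A count of 0 there allows up to 0.237 and 0.275 CPM on average, taken as 3 counts per library, which covers counting error only. Replicates of a group could lie far apart. In anti-PD-L1 PD-1- Tregs, for example, Scap had 0 and 1094 counts and Acat2 had 1393 and 0. A count of 0 is therefore not read as absence of the transcript from the cells. Fewer expressing cells, less RNA per cell and loss in amplification cannot be told apart in such bulk samples.

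Separation of the arms was compared with the same measure over all genes. A gene could count only if it averaged 10 CPM or more in whichever arm was higher. The shares are of all 34 members and of all 13434 tested genes, with genes under 10 CPM left in the totals. Members and all genes were not matched for level, so the 2 shares are not strictly alike. In PD-1+ Tregs 5 members had every anti-PD-L1 library above every isotype library (14.7%, against 7.12% of tested genes), namely Srebf2, Lss, Cyp51, Dhcr7 and Abcg1. There, 3 were lower, Abca1, Fasn and Scd1 (8.82%, against 9.38%). In PD-1- Tregs 2 members were higher, Pmvk and Cyp51 (5.88%, against 11.4%), and 5 were lower, Insig1, Insig2, Fdft1, Abcg1 and Scd2 (14.7%, against 12.5%). In CD4 T cells 7 were higher, Insig2, Mvd, Lss, Cyp51, Msmo1, Ebp and Stard4 (20.6%, against 10.5%), and Srebf1 was lower (2.94%, against 10.9%). In these CD4 T cells 25 of the 34 log2 differences were positive (73.5%, against 48.9% of tested genes), with a median of 0.15 against -0.01, and none was called. In PD-1+ Tregs 19 of 34 were positive (55.9%, against 48.0%), with a median of 0.37 against 0. In PD-1- Tregs 15 of 34 were positive (44.1%, against 41.6%), with a median of -0.12 against 0. Both medians were the same with genes of an arm at 0 set at their bound.

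**Figure D4:**
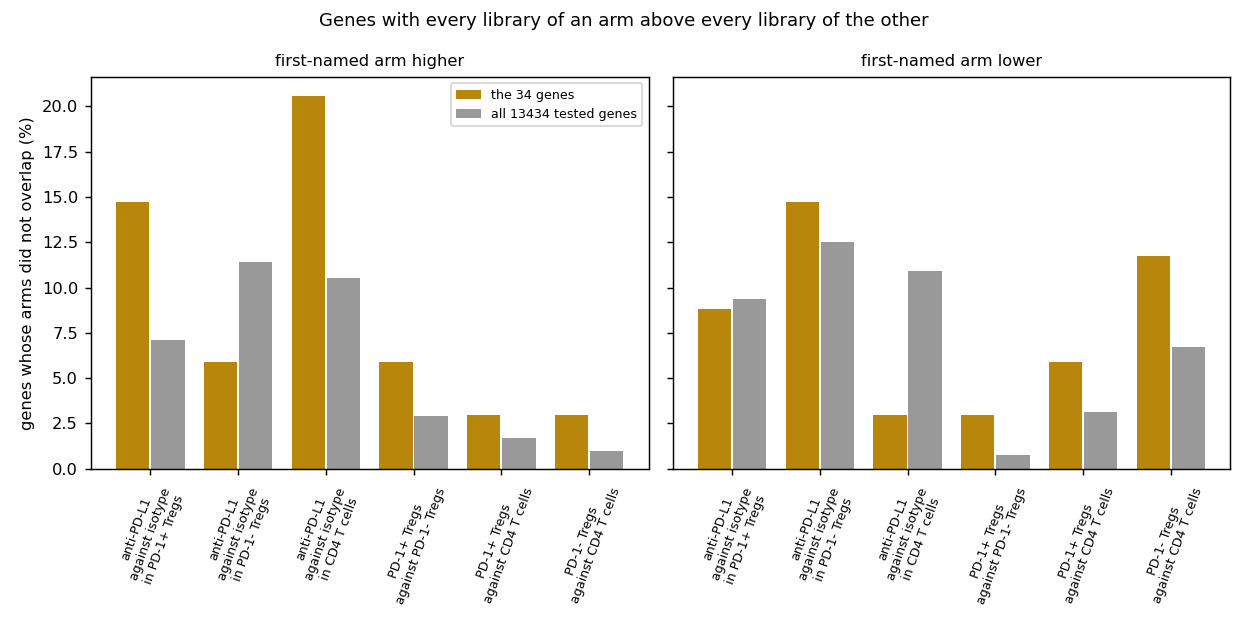
Share (%) of the 34 genes (gold) and of all 13434 tested genes (grey) for which every library of the first-named arm lay above (left) or below (right) every library of the other, where the higher arm averaged 10 CPM or more. The 34 genes reached 20.6% against 10.5% for higher levels under anti-PD-L1 in CD4 T cells and 5.88% against 11.4% in PD-1- Tregs. Genes under 10 CPM stay in the totals of both shares, which were not matched for level.

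Between populations the same measure gave small counts. In PD-1+ against PD-1- Tregs 2 members were higher without overlap, Dhcr7 and Tmem97 (2.9% of tested genes), and Srebf2 was lower (0.759% of tested genes). In PD-1+ Tregs against CD4 T cells Tmem97 was higher (1.67% of tested genes) and 2 members were lower, Srebf2 and Mvd (3.12% of tested genes). In PD-1- Tregs against CD4 T cells Sqle was higher (0.997% of tested genes) and 4 members were lower, Insig2, Mvd, Hsd17b7 and Dhcr7 (6.71% of tested genes). No member was called between PD-1+ Tregs and CD4 T cells (0.35% of tested genes called) or between PD-1- Tregs and CD4 T cells (3.6% of tested genes called). At an unadjusted p under 0.05 there were 3 members in PD-1+ Tregs against CD4 T cells (12.4% of tested genes), and DESeq2 called 1 and limma-voom 2. In PD-1- Tregs against CD4 T cells 11 members had an unadjusted p under 0.05 (28.6% of tested genes did), and DESeq2 called 9 and limma-voom 13. Counts over all genes are given at the end for DESeq2 but not for limma-voom. The member counts of limma-voom are therefore not read as a trait of these genes. The median log2 difference of the members in PD-1- Tregs against CD4 T cells was -0.44, against -0.94 over all tested genes; for PD-1+ against PD-1- Tregs it was 0.43 against 0.42. These medians average groups in which single genes were at 0 and so depend on the fit.

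Levels were also summed over roles. The 17 enzymes of sterol synthesis summed to 654 to 1184 CPM in anti-PD-L1 PD-1+ Tregs and 740.4 and 821 CPM in isotype PD-1+ Tregs. In PD-1- Tregs they summed to 889 and 738 CPM under anti-PD-L1 and 837 and 871 CPM under isotype. In CD4 T cells they summed to 1077, 1014 and 958 CPM under anti-PD-L1 and 820.1 and 842 CPM under isotype, the one population in which the arms did not overlap. The 8 fatty acid synthesis genes overlapped in each population. The 5 sterol sensing genes, Insig1 among them, summed to 219 and 219 CPM in anti-PD-L1 PD-1- Tregs, against 415 and 591 CPM in isotype PD-1- Tregs. Insig1 alone held 56.4 and 46.9 CPM of the treated sums and 249 and 435 CPM of the isotype sums. Srebf1, Srebf2 and Scap overlapped between these arms, so the sums show no shift of the 5 genes as a set. In PD-1+ Tregs the sums of the 5 genes were higher under anti-PD-L1, at 363, 372 and 365 CPM against 284 and 207 CPM under isotype. The sums are given as values, with no test.

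**Figure D5:**
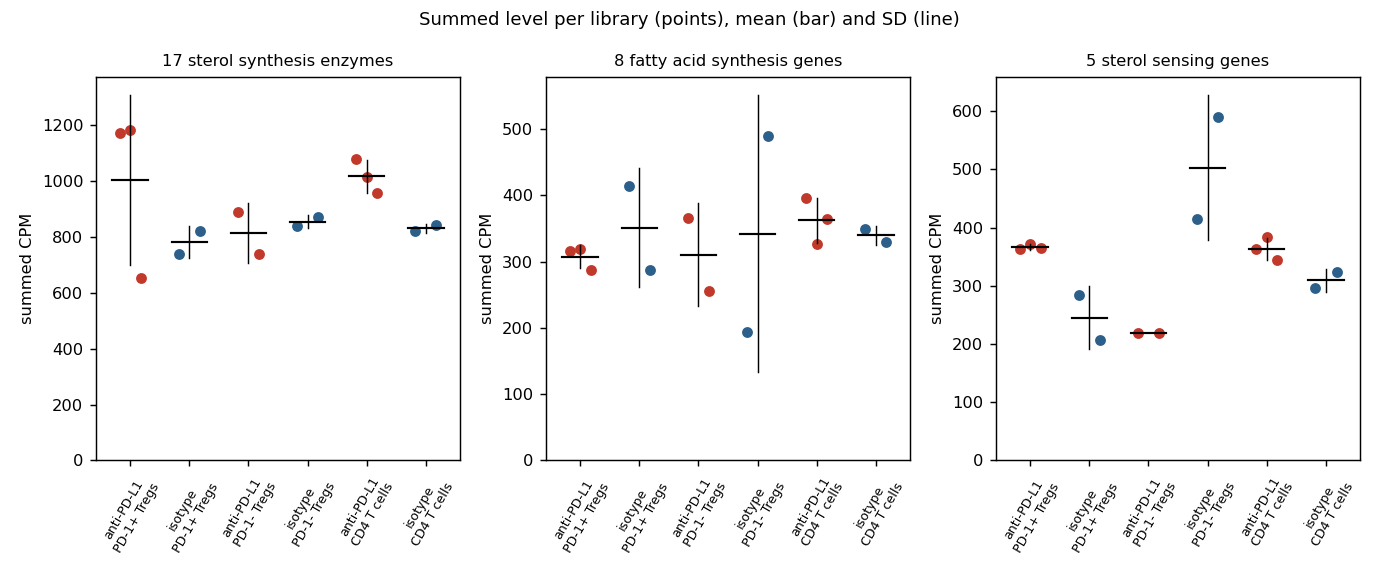
Summed level in CPM per library (points), with the mean (bar) and SD (line) of each group, for the 17 sterol synthesis enzymes, the 8 fatty acid synthesis genes and the 5 sterol sensing genes; red is anti-PD-L1 and blue is isotype. Sterol sensing sums in PD-1- Tregs were 219 and 219 CPM under anti-PD-L1 and 415 and 591 CPM under isotype, while enzyme sums in PD-1- Tregs overlapped. Of the sensing sums, Insig1 alone held 56.4 and 46.9 CPM under anti-PD-L1 and 249 and 435 CPM under isotype.

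A further 54 genes of sterol control, uptake and storage, other synthesis steps and fatty acid use were tested as the surrounding pathway. Under anti-PD-L1 in PD-1- Tregs 4 of 54 were called, beside 2.66% of all tested genes. Acat1, the mitochondrial thiolase of ketone and isoleucine breakdown, fell by 1.69 ± 0.36 on the log2 scale, with libraries at 59.7 and 108 CPM under anti-PD-L1 and 265 and 275 CPM under isotype (adjusted p = 0.0251). Dgat1, which completes triglyceride synthesis, rose by 4.12 ± 0.95, at 82.9 ± 45.5 CPM under anti-PD-L1 against 4.75 ± 2.37 CPM under isotype (SD, n = 2 each; adjusted p = 0.0383). Hadha, of mitochondrial fatty acid oxidation, rose by 2.59 ± 0.61, at 179.9 ± 129.8 CPM under anti-PD-L1 against 29.8 ± 17.4 CPM under isotype (SD, n = 2 each; adjusted p = 0.0460). Hacd2, the dehydratase of very long chain fatty acid elongation, had 0 counts in both treated libraries and 33.4 and 107 CPM in the isotype ones (adjusted p = 0.00263). The isotype mean was 297 times a floor of 3 counts per treated library, which covers counting error only and not the spread between libraries. Apart from fits that left out 1 library, the Hacd2 call held in 10 of 12 alternatives, with an adjusted p of up to 0.899. None of the 54 was called under treatment in PD-1+ Tregs or CD4 T cells. At an unadjusted p under 0.05 there were 5 and 0, beside 8.06% and 1.15% of all tested genes. In the mean effect over the 3 populations Dgat1 (2.31 ± 0.49, adjusted p = 0.0401) and Hacd2 (adjusted p = 0.00795) were called, beside 1.23% of all tested genes. The Dgat1 call there held in 5 of 14 fits that left out 1 library and in 5 of 11 other alternatives, with an adjusted p of up to 0.353.

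The mean of Dgat1 was also higher under anti-PD-L1 where it was not called. It averaged 101 ± 42.0 CPM (n = 3) against 35.8 ± 9.55 CPM (n = 2) in PD-1+ Tregs, and 65.4 ± 28.6 CPM (n = 3) against 26.2 ± 10.1 CPM (n = 2) in CD4 T cells, values given for description. Its call in PD-1- Tregs was kept in 5 of 14 fits that left out 1 library. Hadha was less even: its fitted rise ran from 1.56 to 3.36 over those fits and was kept in 3 of 14.

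Between the Treg types 3 of the 54 pathway genes were called, beside 4.28% of all tested genes. Apoe, the apolipoprotein of lipid transport that macrophages make in large amounts, was higher in PD-1+ than in PD-1- Tregs by 5.66 ± 0.85 on the log2 scale (adjusted p = 0.00438). It was at 618 to 1810.3 CPM in PD-1+ Tregs, 4.71 to 151 CPM in PD-1- Tregs and 672 to 1820.3 CPM in CD4 T cells, and was lower in PD-1- Tregs than in CD4 T cells by -5.34 ± 0.84 (adjusted p = 0.00656). Macrophage marker sums were likewise lower in PD-1- Tregs than in both other populations, and their part in the difference was not tested. Acadl, an acyl-CoA dehydrogenase of fatty acid oxidation, was at 51.0 to 116 CPM in PD-1+ Tregs and 0.186 to 12.1 CPM in PD-1- Tregs (3.48 ± 0.86, adjusted p = 0.0426). This call held in 2 of the 14 fits that left out 1 library and in 7 of 12 other alternatives; the difference was 5.84 ± 0.64 without isotype PD-1- Tregs replicate 2 and 3.00 ± 0.50 without replicate 1, the fits that kept the call, and the adjusted p in the other 12 was 0.0562 to 0.0914. Hacd2 was called in both comparisons with PD-1- Tregs, but its fitted values rest on the treated PD-1- Treg group at 0. No pathway gene was called between PD-1+ Tregs and CD4 T cells, with 8 at an unadjusted p under 0.05, beside 12.4% of all tested genes.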

How the data were processed

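RNA of 14 libraries was sequenced after Smart-seq2 amplification, which uses no molecular identifiers, per the labels' protocols. The authors deposited a table of raw read counts per gene and a table of RPKM values, which scale counts by transcript length and depth; tools listed without a role, per the submitters' processing notes, were DESeq2, HOMER 3.12, SAMtools and HISAT2 2.0.4, and the build was mm10. The deposited counts were tested with edgeR 4.0.16 (R 4.3.3): TMM scaling, a filter on low counts (minimum count 10 over the 6 groups), 1 quasi-likelihood fit of 6 group means over 14 libraries, and Benjamini-Hochberg adjustment over 13434 genes within each of 10 comparisons, with a threshold of 0.05. An SE is the absolute log2 difference over the root of F. The common biological coefficient of variation was 1.22, so that only large differences could be called at 2 or 3 libraries a group. CPM values use TMM-scaled library sizes with no prior count, and comparisons of populations average the log2 means of groups with equal weight. Counting floors of 3 counts cover counting error only. The deposited RPKM values served for levels between genes and for limma 3.58.1; DESeq2 1.42.0 and limma-voom were alternatives. The procedure was tested on simulated data.

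The 34 members, the 54 pathway genes and the marker lists were chosen with earlier results of these data known. Values in every library are given for the sensing genes, called members, members whose treatment arms did not overlap and the members highest in RPKM of each role; pathway genes are named where called. Libraries with the same replicate number deviated together with a correlation of -0.03 to 0.07, so the numbers were not taken to pair libraries. A number in brackets in the titles differs from the replicate number for anti-PD-L1 PD-1- Tregs and was tried as well. Libraries with the same bracketed number correlated at 0.002 to 0.07. The 3 libraries with Y-linked counts all carry bracketed number 3, and the labels do not say what this number marks. Whether these libraries share animals or pools cannot be told. With this number as a block the calls of Abcg1 under treatment and of Srebf2 between the Treg types were lost. The fit without the 3 libraries that hold Y-linked counts was added after the data were seen.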

Additional observations from a re-analysis of the deposited data

Results flagged for a closer look

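The treatment effect differed between populations, by the test of the difference itself in edgeR, for 2 of the 34 genes and for 1 pathway gene. For Insig1 the effect in PD-1- Tregs minus that in PD-1+ Tregs was -3.30 on the log2 scale, and minus that in CD4 T cells -3.20. For Abcg1 the effect in PD-1- Tregs minus that in PD-1+ Tregs was -2.90. For Hacd2 the fitted differences were -12.29 against PD-1+ Tregs and -13.01 against CD4 T cells; both rest on a treated PD-1- Treg group at 0 counts, so their size is no bound.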

How the results depend on the processing

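No result changed direction under any alternative that was run. Of the 34 members, edgeR's fit of all libraries called 2 under treatment in PD-1- Tregs, 1 between PD-1+ and PD-1- Tregs, 2 for the effect in PD-1- against PD-1+ Tregs, 1 for the effect in PD-1- Tregs against CD4 T cells and 0 elsewhere; the causes of the shifts below were not tested. Under treatment DESeq2 called 1 for PD-1+ Tregs, 10 for PD-1- Tregs and 5 for the mean effect; it called 10 between the Treg types, 1 between PD-1+ Tregs and CD4 T cells, 9 between PD-1- Tregs and CD4 T cells, and 7 and 6 for the differences in effect of PD-1- Tregs from PD-1+ Tregs and CD4 T cells. Of the 12708 genes it tested it called 618, 2755, 1898, 2963, 741, 3134, 2166 and 1804 in the same order. limma-voom called 6, 2 and 13 between populations in the same order, and with quality weights 0 under treatment in PD-1- Tregs, 0, 2 and 0 between populations, and 0 and 0 for the differences in effect. With only the compared libraries in the fit, 0 were called under treatment in PD-1- Tregs, 0 between the Treg types, 1 between PD-1+ Tregs and CD4 T cells, and 0 and 0 for the differences in effect; for the mean effect this is the fit of all libraries itself. On log2(RPKM + 0.1) 4, 2 and 7 were called between populations and 1 and 0 for the differences in effect, and on log2(RPKM + 1) 3, 1 and 6, and 0 and 0. Counts over all genes are not given for the limma-voom, compared-library and RPKM fits. Nor are they given for the fit without Y-linked libraries and the block fits, which follow. The member counts of all these fits show how the calls moved and are not read as a trait of the members. Without the 3 libraries with Y-linked counts 1 was called in the mean effect, 2 between the Treg types, 1 between PD-1- Tregs and CD4 T cells, and 1 for the effect in PD-1- against PD-1+ Tregs.

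Leaving out 1 library in turn, the count ran from 1 to 7 under treatment in PD-1- Tregs, 0 to 5 in the mean effect, 0 to 7 between the Treg types, 0 to 1 between PD-1+ Tregs and CD4 T cells, 0 to 8 between PD-1- Tregs and CD4 T cells, 0 to 8 for the effect in PD-1- against PD-1+ Tregs and 0 to 7 for that in PD-1- Tregs against CD4 T cells. Without anti-PD-L1 PD-1- Tregs replicate 1 the counts were 7, 5, 7, 1, 8, 8 and 7 in this order; the lone treated library is then assumed to vary like the other groups.

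With the replicate block, 1 member was called under treatment in PD-1- Tregs, 0 between the Treg types, and 0 and 0 for the differences in effect, and the block by bracketed number gave the same counts. Insig1 kept its call under the block and Abcg1 and Srebf2 did not (adjusted p = 0.0744 and 0.171). The counts over all tested genes moved with these: leaving out 1 library they ran from 202 to 1061 under treatment in PD-1- Tregs and 31 to 820 in the mean effect, and were highest in both without anti-PD-L1 PD-1- Tregs replicate 1. For the other comparisons the counts over all tested genes in these fits are not given, so their member counts have no background here. The common biological variation limits what 2 or 3 libraries a group can show.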
